A study of Mus musculus with 8 samples.

Results

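Lungs of *Wfdc2*-null mice were compared with lungs of wild-type mice at postnatal day 1.5 (P1.5), using 4 of the 8 sequenced libraries. *Wfdc2* encodes a small secreted protein with whey acidic protein (WAP) domains, of a family of protease inhibitors. In the null allele a cassette coding for GFP replaces exon 2 and some of exon 1, so *Wfdc2* GFP/GFP mice lack the gene in every cell from conception, and littermates with 2 intact alleles (*Wfdc2* +/+) served as controls. The line was made in TT2 embryonic stem cells and bred through chimeras with ICR embryos. Total RNA of whole lung from duplicate animals gave 2 libraries for GFP/GFP and 2 for +/+ at P1.5, and the same at E18.5, before birth. No agent was given to any group. Genes whose RPKM (reads scaled to gene span and library total) averaged 0.5 or more across all 8 libraries were taken, 9422 of 25965, and ranked by the difference of mean log2 RPKM (GFP/GFP minus +/+) where both GFP/GFP values lay outside both +/+ values. Cytokines and surfactant proteins are not described for their own sake. Throughout, a pair of values is given in the order replicate 1, replicate 2. Values after "stood at" are log2 RPKM in +/+ and then, after "against", in GFP/GFP, and a single value in brackets after a gene is its difference of mean log2 RPKM at P1.5.

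In the first days of life the lung clears its fluid, opens its airspaces and meets inhaled material. Type II alveolar cells secrete surfactant, thin type I cells carry gas exchange, and club and ciliated cells line the airways. In an acute-phase response, epithelial and immune signals acting through STAT3, NF-kB and C/EBP factors switch on secreted proteins such as serum amyloid A and lipocalin 2. Glucocorticoids act through a nuclear receptor to mature the lung around birth and to limit inflammation.

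The targeted gene followed the labels, with 32845 and 10212 reads of *Wfdc2* (chromosome 2, 164562413 to 164568510, mm10) in the +/+ libraries at P1.5 and 12 and 0 in GFP/GFP. Library totals at P1.5 were between 19457647 and 29257003 reads, and the detection limit, set at 3 reads in each library, stood for 0.103 to 0.154 RPM (reads scaled to the library total alone). *Sftpc* of type II cells was the most abundant gene in all 4 libraries, and *Scgb1a1* of club cells and *Ager* of type I cells had at least 104788 and 63939 reads in each. The +/+ libraries stood apart from each other: 3314 of the 9422 genes (35.2%) differed more than 2-fold between them, against 677 (7.19%) between the GFP/GFP libraries. Replicate 1 of each genotype carried reads of *Xist* and replicate 2 reads of the Y-linked *Ddx3y*, so each genotype had 1 female and 1 male library. At E18.5 the GFP/GFP libraries stood apart too, with 1839 genes (19.5%) more than 2-fold apart against 71 (0.754%) for +/+, and replicate 1 was the one library of the 8 whose most abundant gene was *Eef1a1*. For this reason many results are given with the values obtained when libraries were left out. Where no such value is given, a result may still rest on 1 library. In bulk RNA, fewer cells of a type and less RNA per cell cannot be told apart.

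The windows of 250 bases before the transcript start of 5 genes on which the results turn are shown here, taken from RefSeq (GRCm38.p6, the assembly of mm10), 5′ to 3′ on the strand of the gene. *Saa3*, *Serpina3g* and *Lcn2* are shown because they are acute-phase genes that were higher together in GFP/GFP, *Cldn4* because it was the highest ranked junction gene, and *Hif3a* because it was among the lowest ranked genes. Capitals mark matches to 6 short motifs searched on both strands, C/EBP (TTGCNNAA), STAT (TTCNNNGAA), NF-kB (GGGNNTTCC), AP-1 (TGANTCA), HIF (ACGTG) and CRE (TGACGTCA). The matches shown share no bases.
Saa3, chr7:46715677-46715926, minus strand: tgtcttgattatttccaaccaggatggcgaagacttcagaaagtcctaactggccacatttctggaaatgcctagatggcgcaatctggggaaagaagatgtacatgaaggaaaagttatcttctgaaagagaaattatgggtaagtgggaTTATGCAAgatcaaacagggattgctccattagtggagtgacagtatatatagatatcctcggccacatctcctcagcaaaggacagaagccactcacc
Serpina3g, chr12:104235897-104236146, plus strand: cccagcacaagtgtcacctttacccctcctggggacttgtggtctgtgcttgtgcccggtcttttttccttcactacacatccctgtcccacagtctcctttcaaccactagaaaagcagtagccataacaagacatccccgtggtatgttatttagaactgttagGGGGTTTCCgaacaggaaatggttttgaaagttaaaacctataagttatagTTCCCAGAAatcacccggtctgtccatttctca
Lcn2, chr2:32387740-32387989, minus strand: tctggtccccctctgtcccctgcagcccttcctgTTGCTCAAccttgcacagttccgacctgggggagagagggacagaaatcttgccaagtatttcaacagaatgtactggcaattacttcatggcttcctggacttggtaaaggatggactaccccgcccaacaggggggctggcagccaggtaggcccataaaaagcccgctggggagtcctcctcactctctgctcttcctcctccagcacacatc
Cldn4, chr5:134946935-134947184, minus strand: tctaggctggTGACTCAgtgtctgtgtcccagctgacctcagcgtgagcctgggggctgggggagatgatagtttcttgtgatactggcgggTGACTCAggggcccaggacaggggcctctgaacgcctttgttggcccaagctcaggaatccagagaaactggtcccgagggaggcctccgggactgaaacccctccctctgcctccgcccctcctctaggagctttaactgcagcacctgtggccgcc
Hif3a, chr7:17062428-17062677, minus strand: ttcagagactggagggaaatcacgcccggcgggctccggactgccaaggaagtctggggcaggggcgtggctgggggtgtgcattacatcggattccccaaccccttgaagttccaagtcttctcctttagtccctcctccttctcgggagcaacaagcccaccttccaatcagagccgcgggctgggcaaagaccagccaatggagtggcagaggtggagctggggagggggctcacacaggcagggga
The *Saa3* match to C/EBP lay 99 to 92 bases before the start, that of *Lcn2* 216 to 209 bases before it, and *Serpina3g* held an NF-kB match at 84 to 76 and a STAT match at 33 to 25 bases before the start. The *Cldn4* window held 2 AP-1 matches, at 240 to 234 and 158 to 152 bases before the start, and the *Hif3a* window held none of these letters.

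Of the 20 highest ranked genes 14 were found in RefSeq, with 16 such windows. A C/EBP match stood in 5 of the 16 (31.2%) and a STAT match in 4 (25%), where 9.56% and 7.02% of all 32851 promoter windows held one. NF-kB (6.25%), AP-1 (6.25%) and HIF (12.5%) stood near their shares of all windows, which were 4.98%, 6.75% and 16.6%, and CRE was in none of the 16 and in 1.55% of all. Of the 20 lowest ranked genes 11 were found, with 13 windows, of which 1 held C/EBP (7.69%), 2 held AP-1 (15.4%) and none held STAT, NF-kB, HIF or CRE. Of the 14 measured acute-phase genes, some of them also among the 20 highest ranked, 11 were found, with 11 windows. NF-kB and HIF each stood in 2 (18.2%), C/EBP and STAT each in 3 (27.3%), and AP-1 and CRE in none. These shares are a description of letters, with no test, and say nothing about binding.

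With limma's adjusted p held under 0.05, no gene of 9422 rose (0%) and 3 (0.0318%) fell in GFP/GFP at P1.5, a count of 0 higher and 3 lower. These counts were 20 and 106 without +/+ replicate 1, 66 and 30 without +/+ replicate 2, 0 and 2 without either GFP/GFP library, and 0 and 0 without either E18.5 GFP/GFP library, which enters through the shared estimate of spread. At an unadjusted p under 0.05 there were 396 higher and 540 lower, and limma's voom on the reads behind the values called 0 higher and 2 lower. The first of the 3 was *Wfdc2* (difference −12.79, standard error 1.05, limma adjusted p = 0.00279). *Gm9000* had 758 and 402 reads in +/+ and 8 and 1 in GFP/GFP (difference −7.95, standard error 0.91, limma adjusted p = 0.0247). *Gm11705* had 6 and 12 reads in +/+ and none in GFP/GFP, which is at least 3.58-fold lower against 3 reads a library (limma adjusted p = 0.0247). *Gm9000* had 3 to 5 reads in each E18.5 library of either genotype, so of the 8 libraries the P1.5 +/+ pair alone was high. All other genes below failed the adjusted threshold, and "higher" and "lower" are used for their measured means.

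Without overlap between the genotypes, 1526 genes (16.2%) were higher and 1725 (18.3%) lower in GFP/GFP. Of these, 311 were higher and 524 lower by more than 2-fold, and 51 and 57 by more than 4-fold. These shares, 16.2% and 18.3%, are the background against which each list is read. Under an exact permutation of 2 against 2 libraries, separation in either direction has a probability of 0.33. The counts alone therefore do not show that these genes differ. The median difference of all genes tested was −0.05 on the log2 scale, and with each library centred on its median 2105 genes were higher and 1900 lower without overlap. Beside the limit of 0.5 RPKM, *Bcr* (0.50006 RPKM) and *Mapt* (0.50103) stood just inside, with differences of −0.42 and −1.70, and *Sesn1* (0.49807) and *Amn1* (0.49941) just outside, with −1.09 and −1.22.

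**Figure D1:**
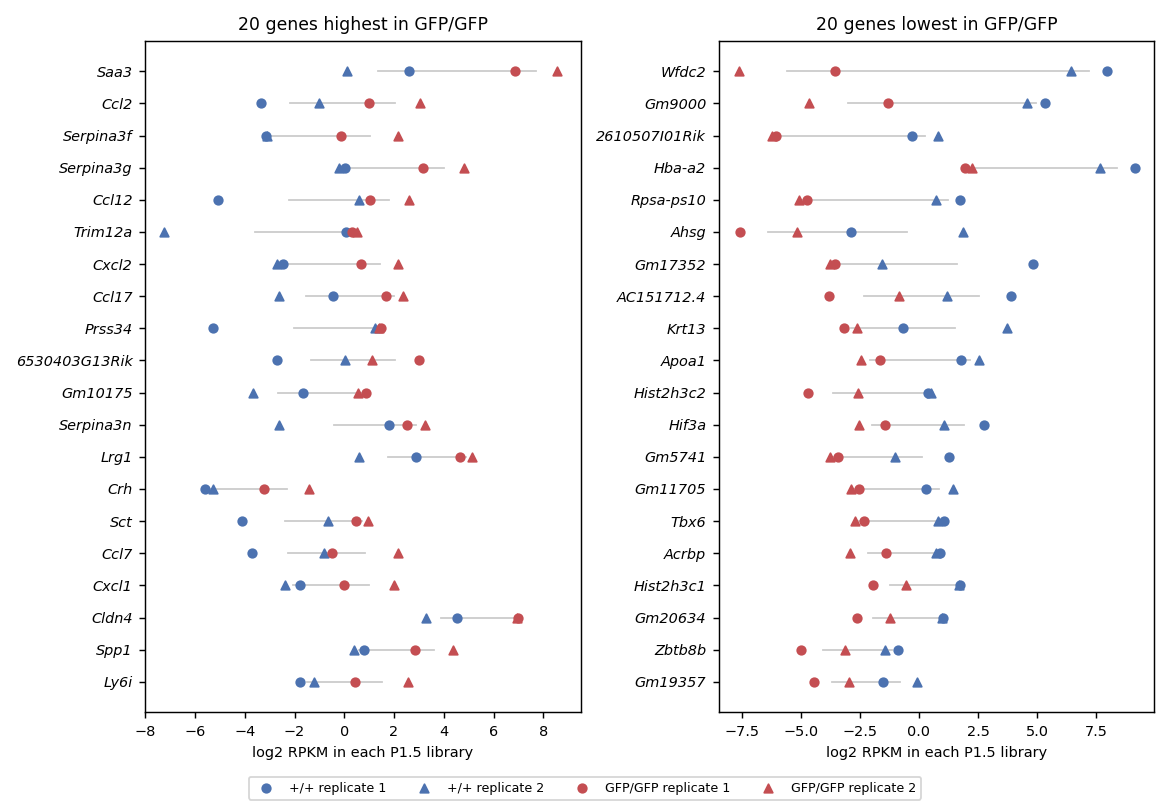
The log2 RPKM of each P1.5 library is plotted for the 20 genes with the largest and the 20 with the smallest difference, +/+ in blue and GFP/GFP in red, replicate 1 as circles and replicate 2 as triangles, with a grey line between the group means. GFP/GFP replicate 2 stood above replicate 1 in 16 of the 20 highest genes, and the +/+ values of *Trim12a* (0.05 and −7.24) and *Prss34* (−5.26 and 1.24) lay far apart.

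The 20 highest ranked genes had differences of up to 6.33, with limma adjusted p from 0.0743 to 0.595. Acute-phase genes and serpins led them. The ranking also held 6 chemokines (*Ccl2*, *Ccl12*, *Ccl17*, *Ccl7*, *Cxcl2* and *Cxcl1*), the mast cell protease *Prss34*, the myeloid surface gene *Ly6i*, and 2 peptide hormone genes, *Crh* and *Sct*, at 0 to 46 reads a library. The transcript *6530403G13Rik* (1 and 6 reads in +/+, 55 and 19 in GFP/GFP) and the pseudogene *Gm10175* (4 and 0 against 25 and 25) were low. *Trim12a* (351 and 2 reads in +/+, 452 and 652 in GFP/GFP) and *Prss34* (1 and 81, then 115 and 135) were in the list through 1 low +/+ library, and their differences were 0.37 without +/+ replicate 2 and 0.20 without +/+ replicate 1.

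Acute-phase genes were the list with the largest median difference among those with at least 10 measured members. Of 14 measured members 12 were higher and 0 lower without overlap, with a median of 2.11 (1.52 to 2.68 with each library left out in turn). *Saa3* ranked highest of all genes and encodes serum amyloid A3, a secreted lipid-binding protein of inflamed tissue. Its log2 RPKM was 2.61 and 0.11 in +/+ and 6.84 and 8.54 in GFP/GFP, from 489 and 77 against 9766 and 39931 reads. Both GFP/GFP libraries were far above both +/+ libraries, by a mean of 6.33 (standard error 1.13, limma adjusted p = 0.131), or 80.4-fold.

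*Lcn2*, lipocalin 2, which binds bacterial siderophores, had a log2 RPKM of 5.32 and 4.48 in +/+ and 7.29 and 8.04 in GFP/GFP (difference 2.76, standard error 0.74, limma adjusted p = 0.335). *Lrg1*, a leucine-rich plasma glycoprotein, stood at 2.90 and 0.60 against 4.63 and 5.14. *Hp*, haptoglobin, which binds free haemoglobin, stood at 7.71 and 6.34 against 8.50 and 8.73. In each of these genes the lower +/+ library was replicate 2, and in *Lrg1* and *Hp* the GFP/GFP libraries were close together. *Itih4* (difference 2.29), *Timp1* (1.93), an inhibitor of metalloproteinases, *Ptx3* (1.65), a soluble pattern receptor, *Socs3* (0.99), the feedback inhibitor of STAT3, and *Lbp* (0.42), which carries lipopolysaccharide, were also higher without overlap. *Cebpb* overlapped (6.26 and 5.73 against 6.04 and 6.74), as did *Pglyrp1* (4.13 and 1.97 against 3.17 and 2.73).

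The ranking held 3 clade A serpins, relatives of the plasma inhibitor of neutrophil cathepsin G. *Serpina3g* (chromosome 12, 104236245 to 104241939) had a log2 RPKM of 0.03 and −0.21 in +/+ and 3.18 and 4.80 in GFP/GFP. This was 16.9-fold, with a standard error of 0.59 on a difference of 4.08 (limma adjusted p = 0.0743), and the difference was 3.27 to 4.89 with each library left out. *Serpina3f* had 16 and 15 reads in +/+ and 140 and 870 in GFP/GFP. *Serpina3n* had 571 and 24 against 997 and 2110, so +/+ replicate 1 came near the GFP/GFP level. The genes of this cluster are close copies, and reads may have been divided among them.

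Among epithelial barrier and transport genes a few stood out from lists that did not shift as a whole. *Cldn4*, a claudin that seals tight junctions, had a log2 RPKM of 4.53 and 3.27 in +/+ and 6.97 and 6.96 in GFP/GFP, 8.36-fold higher (difference 3.06, standard error 0.50, limma adjusted p = 0.0963). The GFP/GFP libraries were nearly equal, and the difference was 2.44 to 3.69 with each library left out. *Aqp3*, a water and glycerol channel of basal cells, stood at −0.62 and −0.37 against 1.74 and 2.71 (difference 2.72, standard error 0.43, limma adjusted p = 0.0953).

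Of 18 measured junction genes 5 were higher and 3 lower without overlap, with a median of 0.03. *Cldn7* (0.97) and *Epcam* (0.56) were higher beside *Cldn4*, and *Cldn1* (−1.26), *Tjp1* (−0.77), the scaffold of tight junctions, and *Dsp* (−0.53), desmoplakin, were lower. Of 13 measured ion and water transport genes 3 were higher and 2 lower. The 3 subunits of the epithelial sodium channel that clears lung fluid overlapped between genotypes, with differences of −0.21 for *Scnn1a*, −0.31 for *Scnn1b* and −0.16 for *Scnn1g*, and the chloride channels *Ano1* (−1.14) and *Clcn2* (−0.80) were lower. Of the WAP family beside *Wfdc2* itself, 4 genes were measured above the filter, and *Slpi*, the secretory leukocyte protease inhibitor, had a log2 RPKM of 1.31 and −1.20 in +/+ and 2.54 and 2.85 in GFP/GFP. *Spp1*, osteopontin, an adhesive glycoprotein of activated macrophages, stood at 0.80 and 0.40 against 2.86 and 4.36 (difference 3.01, standard error 0.65, limma adjusted p = 0.227).

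**Figure D2:**
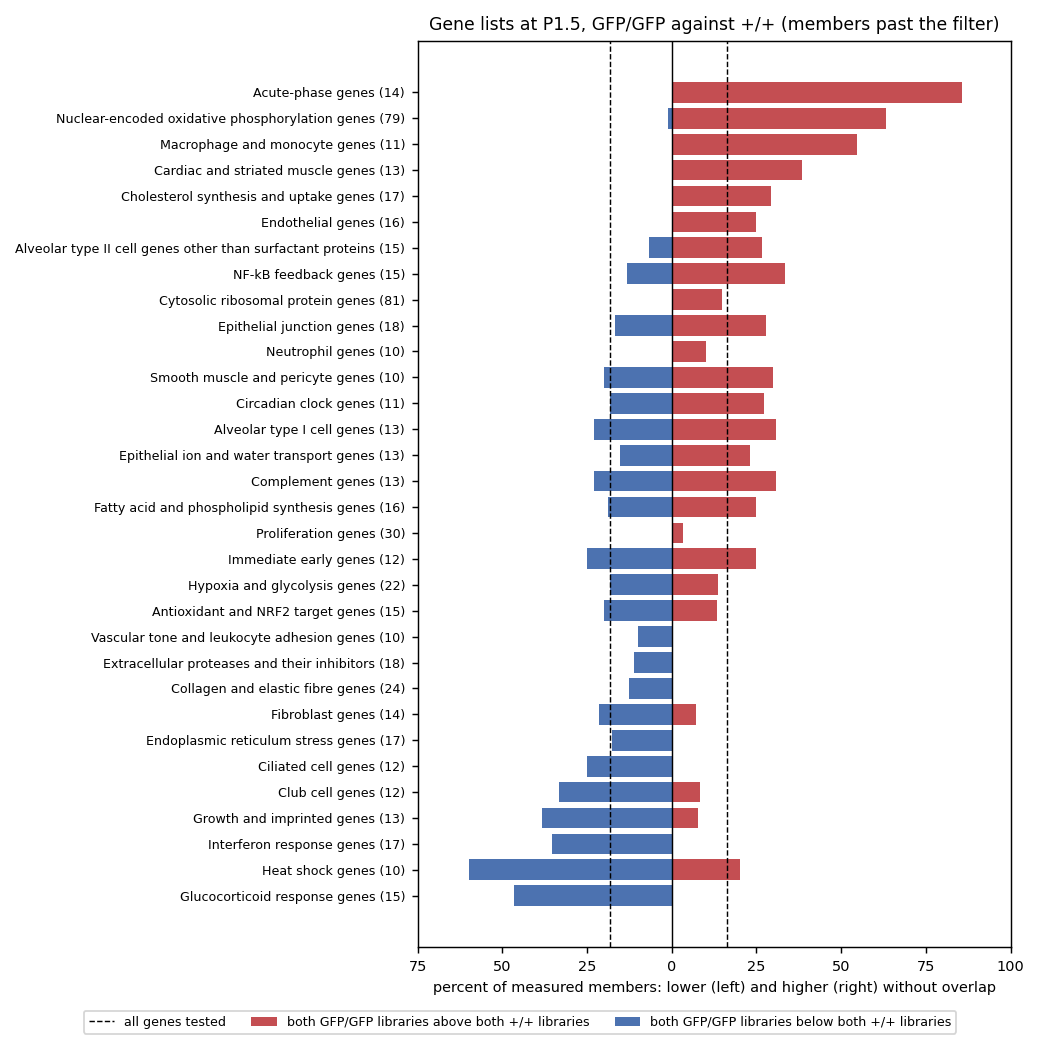
Bars give the percent of measured members of each list with 10 or more of them that were higher (right) or lower (left) in GFP/GFP without overlap at P1.5, with the number measured in brackets, and dashed lines mark the 16.2% and 18.3% of all genes tested. Acute-phase genes (12 of 14) and oxidative phosphorylation genes (50 of 79) reach farthest to the right, and heat shock (6 of 10) and glucocorticoid response genes (7 of 15) farthest to the left.

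Among the 20 lowest ranked genes, *Hif3a* had the deepest counts of the protein-coding genes other than *Wfdc2* and *Hba-a2*. It encodes an oxygen-regulated factor related to HIF-1 alpha, some forms of which inhibit it. Its log2 RPKM was 2.75 and 1.04 in +/+ and −1.43 and −2.53 in GFP/GFP, from 4512 and 1238 against 265 and 157 reads. The difference was −3.88, or 14.7-fold lower (standard error 0.56, limma adjusted p = 0.0743), and ran from −4.73 to −3.02 with each library left out. At E18.5 the same gene was higher in GFP/GFP without overlap, with 6602 and 6378 reads in +/+ and 16525 and 8827 in GFP/GFP. The difference between the stages, −4.76, had a limma adjusted p of 0.0959.

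The other 21 measured hypoxia and glycolysis genes did not follow *Hif3a*. Of the 22, 3 were higher and 4 lower without overlap, with a median of −0.13 that was 0.06 under quantile normalization. *Ldha*, lactate dehydrogenase, had 2462 and 4744 reads against 9101 and 15097, and the glycolytic enzymes *Pgk1* (0.92) and *Pkm* (0.70) were also higher. *Ndrg1* (−0.98), the HIF prolyl hydroxylase *Egln3* (−0.95) and the collagen prolyl hydroxylase subunit *P4ha1* (−0.86) were lower. *Vegfa*, *Slc2a1* and *Car9* overlapped. At E18.5, by comparison, 16 of the 22 were higher and 0 lower in GFP/GFP, with a median of 0.53, where 27.3% of all genes tested were higher and 9.2% lower without overlap.

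The rest of the lowest ranked genes included several that need care. *Tbx6*, a T-box factor of early mesoderm, had 187 and 139 reads in +/+ and 19 and 18 in GFP/GFP (difference −3.46, standard error 0.50, limma adjusted p = 0.0743), and 25 and 30 against 122 and 148 at E18.5, the opposite order. *Acrbp*, an acrosomal binding protein gene, had 546 and 435 against 120 and 53 at P1.5 and 136 and 121 against 757 and 539 at E18.5. *Hist2h3c1* had 131 and 114 reads in +/+ and 11 and 37 in GFP/GFP, and the overlapping *Gm20634* had the same 4 counts, so they are 1 measurement. *Rpsa-ps10*, *Gm5741*, *Gm17352* and *2610507I01Rik* were at 0 or 1 read in both GFP/GFP libraries, at least 21.0-fold, 3.96-fold, 12.2-fold and 26.4-fold lower, and *Gm17352* and *Gm5741* had only 3 and 4 reads in +/+ replicate 2. *Rpsa-ps10* is a processed pseudogene and *AC151712.4*, listed on chromosome Y, had 10142 reads in a +/+ library with at most 3 *Ddx3y* reads. Reads of other loci were thus counted on such entries. *Hist2h3c2* (29 and 28 reads against 0 and 5), *Zbtb8b* (178 and 109 against 11 and 51) and *Gm19357* (14 and 34 against 2 and 7) were low as well. *Hba-a2* (9841 and 3188 against 72 and 111 reads) is a copy of *Hba-a1* (19371 and 14914 against 47318 and 72625) and the counting could split them.

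Glucocorticoid response genes were lower or overlapped. Of 15 measured members 0 were higher and 7 lower without overlap, with a median of −0.96 (−1.16 to −0.42 with each library left out). *Errfi1*, an inhibitor of EGF receptor signalling, had a log2 RPKM of 4.33 and 3.83 in +/+ and 2.59 and 2.51 in GFP/GFP (difference −1.53, standard error 0.33, limma adjusted p = 0.227). *Tsc22d3*, the glucocorticoid-induced leucine zipper, stood at 3.96 and 1.88 against 1.78 and 1.67, with +/+ replicate 2 only just above GFP/GFP. *Dusp1*, a phosphatase that ends MAP kinase signalling, had 3437 and 2756 reads against 1491 and 2289 (difference −1.08), without overlap per library total.

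A further 4 members were also lower without overlap. They were *Klf9* (−1.42), a zinc finger factor, *Angptl4* (−1.31), an inhibitor of lipoprotein lipase, *Pdk4* (−1.14), which blocks pyruvate oxidation, and *Hsd11b1* (−0.96), the enzyme that regenerates active glucocorticoid. *Fkbp5*, a chaperone of the receptor and a sensitive target, overlapped (0.54 and −1.22 against −1.82 and −0.99). *Per1* overlapped too (4.11 and 3.06 against 3.99 and 1.58), as did the receptor gene *Nr3c1* (−1.04 and 0.94 against −0.40 and −0.17). The metallothioneins *Mt1* (8.27 and 5.76 against 8.22 and 8.47) and *Mt2* had higher means in GFP/GFP with overlap, and both are also induced by metals and inflammation. The summed level of the list was 3389 and 1605 RPM in +/+ and 1629 and 1624 RPM in GFP/GFP, so +/+ replicate 1 alone stood above the other 3 libraries.

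Heat shock genes showed 2 directions. Of 10 measured members 6 were lower and 2 higher without overlap, with a median of −0.83 (−0.92 to −0.47 with each library left out). *Hsph1*, a large cytosolic chaperone, had 591 and 1463 reads in +/+ and 192 and 323 in GFP/GFP (difference −2.24, standard error 0.49, limma adjusted p = 0.231). *Hspa8*, the constitutive HSC70, stood at 8.84 and 9.46 against 8.37 and 8.25, and *Hsp90aa1* at 4.98 and 6.26 against 4.65 and 4.50. The inducible HSP70 copies *Hspa1a* (106 and 78 reads against 30 and 67) and *Hspa1b* (44 and 97 against 9 and 56) were low and may share reads. The mitochondrial *Hspe1* (0.20) and the co-chaperone *Bag3* (0.68) were the members that were higher.

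Endoplasmic reticulum stress genes, in contrast, had a median of 0.05 (−0.50 to 0.24 with each library left out, −0.18 under quantile normalization), with 3 of 17 lower and 0 higher. The 3 were *Chac1*, a glutathione-degrading enzyme (117 and 52 reads against 10 and 19), *Ddit3* (−0.92), which encodes CHOP, and *Dnajb9* (−0.62). *Hspa5*, the chaperone BiP, overlapped (5.94 and 7.46 against 6.56 and 7.10).

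Growth and imprinted genes were lower in 5 of 13 measured members and higher in 1, with a median of −0.53 (−0.89 to −0.25 with each library left out). *Igf2*, the fetal insulin-like growth factor, stood at 4.55 and 4.58 in +/+ and 3.59 and 3.24 in GFP/GFP (difference −1.15, standard error 0.34, limma adjusted p = 0.373). The +/+ libraries were nearly equal here. *H19*, the noncoding RNA beside it on the same imprinted locus, stood at 7.75 and 8.11 against 7.26 and 6.58, and the maternally expressed *Meg3* at 4.45 and 4.71 against 3.91 and 3.97. *Cdkn1c* (−0.53) and *Igfbp5* (−0.57) were also lower, and *Dlk1* (0.78) was higher. At E18.5 *Igf2*, *H19* and *Meg3* were higher in GFP/GFP without overlap, by 0.45, 0.92 and 2.27.

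**Figure D3:**
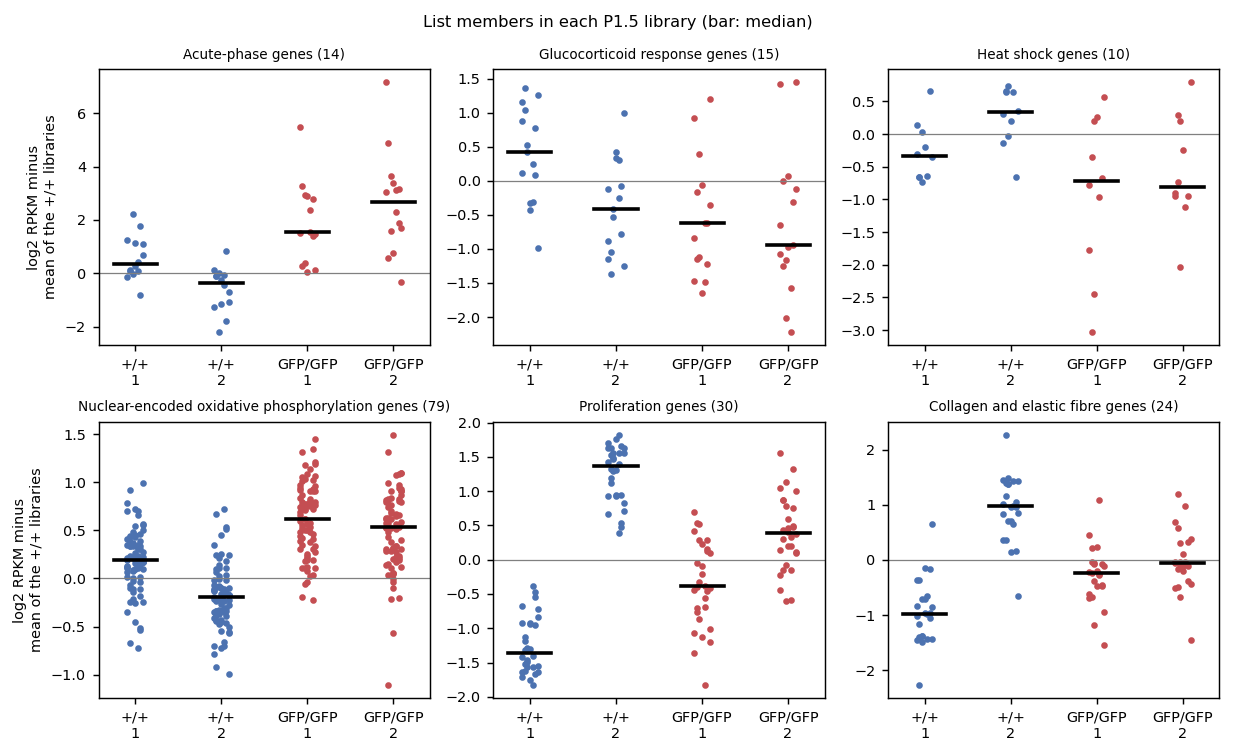
Each point is a measured member of the list in 1 P1.5 library, as log2 RPKM minus the gene's mean in the +/+ libraries, so the +/+ libraries mirror each other by construction, and black bars are medians. Acute-phase, heat shock and oxidative phosphorylation medians of both GFP/GFP libraries lie outside the +/+ pair, whereas proliferation and collagen genes lie between +/+ libraries that are far apart.

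Alveolar epithelial genes stayed near the background at P1.5. Of 15 measured type II cell genes other than surfactant proteins 4 were higher and 1 lower, and the median was 0.22 (0.06 to 0.39 with each library left out). *Chi3l1*, a chitinase-like protein, stood at 5.71 and 5.72 in +/+ and 7.23 and 7.43 in GFP/GFP (difference 1.61, limma adjusted p = 0.671). *Cxcl15* (0.79), *Fabp5* (0.64) and *Lamp3* (0.57), a membrane protein of lamellar bodies, were higher as well. *Abca3*, the lipid transporter of lamellar bodies, was lower, at 2.44 and 2.79 against 2.16 and 2.11, and the factor *Nkx2-1* overlapped.

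Type I cell genes went both ways, with 4 of 13 higher and 3 lower and a median of 0.18 (−0.10 to 0.23 with each library left out). *Aqp5*, the apical water channel, stood at 6.65 and 5.40 against 7.37 and 7.23, and *Cldn18* (0.56) and *Gprc5a* (0.57) were higher. *Rtkn2* was lower with little spread, at 1.85 and 1.91 in +/+ and −0.28 and −0.27 in GFP/GFP (difference −2.15, standard error 0.40, limma adjusted p = 0.136), and *Cav1* (−0.88), caveolin 1, and *Lmo7* (−0.58) were lower too. The defining markers *Hopx* and *Ager* overlapped.

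The direction of the airway epithelial lists rested on +/+ replicate 1. Of 12 measured club cell genes 4 were lower and 1 higher, and their median of −0.22 was 0.39 without that library. The list summed to 22845 and 10203 RPM in +/+ and 14034 and 12016 RPM in GFP/GFP, and the secretoglobins *Scgb1a1* (11.29 and 10.28 against 10.51 and 10.46), *Scgb3a1* and *Scgb3a2* overlapped. The lower members were *Chad* (2.68 and 2.08 against 0.83 and 0.79), the oxidizing enzymes *Cyp2f2* (−0.86) and *Aldh1a1* (−0.76), and *Upk3a* (−0.14). The C-type lectin *Reg3g*, which kills bacteria, was the one higher member, at 3.16 and 2.22 against 4.74 and 4.58.

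The median of 12 measured ciliated cell genes was −0.45, and 0.02 without +/+ replicate 1, with summed levels of 1134 and 501 RPM in +/+ and 634 and 454 RPM in GFP/GFP. Of these genes 3 were lower and 0 higher, namely *Rsph4a* (−1.11), a radial spoke protein of motile cilia, *Ccdc39* (−1.01), which sets the axoneme ruler, and *Sntn* (−1.01), a ciliary tip protein. *Foxj1*, the master factor of ciliated cells, overlapped (4.11 and 3.61 against 3.74 and 3.49). The median of 3 measured basal cell genes was −1.29, and 0.21 without +/+ replicate 1. Of these *Krt15* was lower (4.03 and 3.75 against 3.38 and 1.82), beside *Aqp3* above, and the defining *Krt5* and *Krt14* had at most 138 reads in any P1.5 library and did not pass the filter. Both neuroendocrine genes measured, *Calca* and *Uchl1*, overlapped.

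Collagen and elastic fibre genes mostly overlapped, and their summed level in GFP/GFP lay between those of the +/+ libraries. Of 24 collagen and elastic fibre genes 3 were lower and 0 higher, with a median of −0.22 that ran from −0.96 to 0.75 with each library left out. *Lox*, which cross-links collagen and elastin, stood at 4.74 and 3.44 in +/+ and 2.56 and 2.64 in GFP/GFP, and *Eln* (−0.20) and *Mfap2* (−0.42) were slightly lower. *Col1a1* (3.52 and 6.41 against 4.35 and 4.91) and *Col3a1* (3.12 and 6.11 against 3.44 and 3.95) differed most between the +/+ libraries. The summed level of the list was 7858 and 23915 RPM in +/+ and 11531 and 12732 RPM in GFP/GFP.

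Of 14 measured fibroblast genes 3 were lower and 1, *Pi16*, was higher, with a median of −0.12 (−1.06 to 0.37 with each library left out). Their summed level was 1393 and 1627 RPM in +/+ and 924 and 941 RPM in GFP/GFP. *Tcf21*, a mesenchymal factor of the lung, stood at 5.93 and 6.98 against 4.92 and 5.41, *Pdgfra*, the receptor that marks alveolar fibroblasts, at 0.79 and 0.96 against −0.51 and 0.15, and *Col14a1* (−0.94) was lower too. Smooth muscle and pericyte genes were split, with 3 of 10 higher and 2 lower and a median of 0.65 (−0.17 to 1.53 with each library left out). *Tagln* (1.04), *Cnn1* (199 and 455 reads against 827 and 724) and *Des* (0.62) of the contractile apparatus were higher, and the hedgehog-binding *Hhip* (−1.68) and the pericyte proteoglycan *Cspg4* (−1.25) were lower. *Acta2* was at 1.31 and 4.63 in +/+ and 4.25 and 4.78 in GFP/GFP, so its overlap came from the +/+ pair.

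Of 16 measured endothelial genes 4 were higher and 0 lower, and the median was 0.30 (−0.38 to 0.92 with each library left out). They were *Gpihbp1* (0.94), which holds lipoprotein lipase on capillaries, *Cldn5* (0.90), the endothelial claudin, *Car4* (0.68) and *Emcn* (0.56). The defining *Pecam1* and *Cdh5* overlapped, as did both lymphatic genes measured. Of 10 genes of vascular tone and leukocyte adhesion, 1 was lower, *Edn1* (−0.80), which encodes endothelin 1, and 0 were higher.

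Among leukocyte lists with at least 10 measured members, that of monocytes and macrophages stood above the background. Of 11 measured members 6 were higher and 0 lower, and the median was 0.72 (0.43 to 1.01 with each library left out). *Plac8* stood at 0.70 and 1.40 in +/+ and 2.66 and 2.84 in GFP/GFP, and the monocyte surface gene *Ly6c2* had 71 and 134 reads against 351 and 410. *Cd14*, the co-receptor for lipopolysaccharide, had 578 and 220 reads against 875 and 2156, and *Fcgr1* (1.18), *Cd68* (0.72) and *Lyz2* (0.59) were higher as well. The alveolar macrophage genes *Marco* and *Ear2* and the receptor *Csf1r* overlapped. The summed level of the list was 906 and 1414 RPM in +/+ and 1558 and 1681 RPM in GFP/GFP.

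Neutrophil genes stayed near or below the background. Of 10 measured members 1 was higher and 0 lower, and the median was 0.07 (−0.33 to 0.48 with each library left out), and *S100a8* (9.64 and 7.58 against 8.87 and 7.95) and *S100a9* overlapped. *Thy1* (0.77) was the only T or innate lymphoid gene measured, and *Cd79b*, part of the B cell receptor, stood at 1.55 and 1.89 against 2.99 and 3.20. MHC class II genes had a median of 1.46 with 1 of 6 higher, and it ran from −0.05 to 3.05 with each library left out, since *H2-Ab1* had 17 and 371 reads in +/+ and 422 and 665 in GFP/GFP. Of 5 mast cell genes measured 0 were higher or lower without overlap.

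The innate response outside the cytokines was mixed. Of 15 measured NF-kB feedback genes 5 were higher and 2 lower. *Relb* (−0.33 and −0.45 against 0.77 and 0.87), *Tlr2* (0.99), *Bcl3* (152 and 162 reads against 207 and 781), *Zc3h12a* (0.86), an RNase that degrades cytokine mRNA, and *Icam1* (0.80) were higher, while *Nfkbia*, the classical feedback inhibitor, overlapped (5.43 and 5.43 against 5.37 and 5.93). *Traf1* was lower, at 2.25 and 1.63 against 0.46 and −0.12, with *Ikbke* (−1.38). The adaptor *Myd88* had 475 and 661 reads against 1017 and 2186, without overlap.

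Interferon response genes were not among those higher. Of 17 measured members 0 were higher and 6 lower without overlap, with a median of −0.42 (−0.98 to 0.11 with each library left out). *Ifit1*, which binds foreign RNA, had 202 and 224 reads in +/+ and 35 and 112 in GFP/GFP, and *Usp18* (−1.38) and *Oasl2* (−1.01) were lower. *Isg15* and *Irf1* overlapped. At E18.5, 12 of the 17 were lower and 0 higher, with a median of −0.84. Of all genes tested, 9.2% were lower and 27.3% higher without overlap at that stage. The summed level of the list was then 531 and 496 RPM in +/+ and 257 and 447 RPM in GFP/GFP, lowest in GFP/GFP replicate 1.

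Of 13 measured complement genes 4 were higher and 3 lower. *C4b* had 95 and 311 reads against 671 and 920, and *C1qb* (0.96), *Cfb* (0.77) and *C1qc* (0.47) were higher, while *C3*, the central component, was lower at 4.76 and 4.81 against 3.95 and 4.15, with *Serping1* (−0.80) and *Cd55* (−0.48). Mucosal genes included *Lyz1*, lysozyme, at 7.21 and 7.08 against 8.93 and 8.88. *Lyz1* and *Lyz2* are close copies.

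Immediate early genes were split, with 3 of 12 higher and 3 lower. *Fos* stood at 3.91 and 2.68 against 1.64 and 1.90 and *Btg2* at 5.45 and 5.46 against 3.68 and 4.78, whereas *Nr4a1* (0.96), *Ier3* (0.97) and *Junb* (0.77) were higher. Of 11 clock genes 3 were higher and 2 lower, with *Bhlhe40* at 1.23 and *Per2* at −1.01. Of 15 antioxidant genes 2 were higher and 3 lower. The mitochondrial superoxide dismutase *Sod2* stood at 2.60 and 2.48 against 3.71 and 4.62, and catalase (*Cat*) had 1845 and 4234 reads against 1297 and 1478. Of 18 extracellular proteases and inhibitors 2, *Adamts9* (−0.88) and *Adamts1* (−0.85), were lower and 0 higher.

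Genes of oxidative phosphorylation, which make the respiratory chain, were higher as a list. Of 79 measured nuclear-encoded members 50 were higher and 1 lower without overlap, against 16.2% and 18.3% of all genes, with a median of 0.59 (0.42 to 0.80 with each library left out, 0.36 under quantile normalization). With each library centred on its median the counts were 34 higher and 0 lower, against 2105 higher and 1900 lower of all 9422 genes. *Cox5a* of complex IV stood at 3.25 and 3.06 in +/+ and 4.24 and 4.65 in GFP/GFP, *Ndufb10* of complex I at 5.44 and 5.09 against 6.72 and 6.36, and *Atp5g3* of ATP synthase at 5.75 and 6.24 against 7.05 and 7.30. Each differed by more than 2-fold, with limma adjusted p of 0.391, 0.389 and 0.421. At E18.5 the median of the list was −0.01.

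Ribosomal protein genes did not follow them to the same extent. Of 81 measured members 12 were higher and 0 lower, and the median was 0.22, −0.01 under quantile normalization and −0.25 to 0.69 with each library left out. Their summed level was 171170 and 82988 RPM in +/+ and 149970 and 119570 RPM in GFP/GFP. Of 17 measured genes of cholesterol synthesis and uptake 5 were higher and 0 lower, and the median was 0.50 (0.29 to 1.12 with each library left out). *Sc5d*, a late enzyme of the pathway, stood at −0.47 and 0.17 against 1.09 and 1.92, and *Sqle* (0.86), which makes squalene epoxide, and *Insig1* (0.83), a sterol sensor, were higher. Fatty acid and phospholipid genes had a median of −0.03, with 4 of 16 higher, *Scd1* (6706 and 4360 reads against 10093 and 18568) first, and 3 lower, *Gpam* (−1.47) first.

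Proliferation genes showed how much the +/+ libraries set. Of 30 measured members 1 was higher, *Birc5*, and 0 were lower, and the median of −0.02 was −1.13 without +/+ replicate 1 and 1.13 without +/+ replicate 2. *Top2a*, a topoisomerase of dividing cells, had 256 and 2178 reads in +/+ and 498 and 1430 in GFP/GFP. The summed level of the list was 327 and 1325 RPM in +/+ and 514 and 871 RPM in GFP/GFP. No difference in proliferation genes was detectable with these libraries.

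Markers of other tissues differed between libraries and are set beside the ranked genes they include. Of the 13 hepatocyte genes 4 passed the filter, and the liver genes *Ahsg* (22 and 523 reads in +/+, 0 and 6 in GFP/GFP) and *Apoa1* (139 and 213 against 14 and 10) were among the 20 lowest ranked. Albumin, below the filter, had 8 and 1030 reads in +/+ and 13 and 29 in GFP/GFP, highest in the library where *Ahsg* was highest, and the summed level of the list was 310 and 596 RPM in +/+ and 462 and 458 RPM in GFP/GFP. The squamous keratins *Krt13* (57 and 1092 reads against 11 and 20) and *Krt4* (34 and 930 against 114 and 38) were likewise high in +/+ replicate 2 alone, and the list summed to 14.8 and 119 RPM against 17.6 and 14.7 RPM.

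Of 13 measured cardiac and striated muscle genes 5 were higher and 0 lower, with a summed level of 945 and 438 RPM in +/+ and 847 and 1126 RPM in GFP/GFP. *Actc1*, cardiac actin, stood at 0.91 and 1.84 against 2.54 and 4.01, and *Myh6* and *Tnnt2* overlapped. The adipocyte *Ucp1* had 168 reads in GFP/GFP replicate 2 and 0 in the other 3 libraries, and the thymocyte list stayed between 3.80 and 11.5 RPM. Erythroid genes summed to 1589 and 1334 RPM in +/+ and 2443 and 3021 RPM in GFP/GFP. Of 8 measured members 3 were higher and 2 lower without overlap. *Tfrc* (0.44 and 0.05 against 1.64 and 2.02), the transferrin receptor, was higher with *Hba-a1*, and the globin genes *Hba-a2* and *Hbb-y* were lower. How much liver, squamous, heart or blood RNA each sample held was not tested.

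The E18.5 values of the ranked genes are given beside those of P1.5 as a description, since the ranking itself used P1.5. The 20 highest ranked genes had a median difference of 3.38 at P1.5 and −0.33 at E18.5, where 6 were above 0 and 14 below. The 20 lowest had a median of −4.15 at P1.5 and 0.09 at E18.5, with 10 above and 10 below. The acute-phase list had a median of −0.63 at E18.5, and *Saa3* then had 225 and 159 reads in +/+ and 12 and 126 in GFP/GFP. The summed level of the list at E18.5 was 570 and 693 RPM in +/+ and 204 and 620 RPM in GFP/GFP, so GFP/GFP replicate 1 alone was low. Of all 1725 genes lower at P1.5, 705 were higher and 106 lower in GFP/GFP at E18.5 without overlap, and of the 1526 higher at P1.5, 235 were higher and 164 lower, where 27.3% of all genes tested were higher and 9.2% lower at that stage.

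The test of the difference between the stages called 0 of 9422 genes at a limma adjusted p under 0.05, with 229 higher and 624 lower at an unadjusted p under 0.05 and a smallest adjusted p of 0.0831, shared by *Tbx6*, *Acrbp* and *Gm11705*. Voom called 0 as well. For *Saa3* the difference between the stages was 8.62 (limma adjusted p = 0.104), for *Serpina3g* 4.15 (0.131) and for *Cldn4* 3.03 (0.220).

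**Figure D4:**
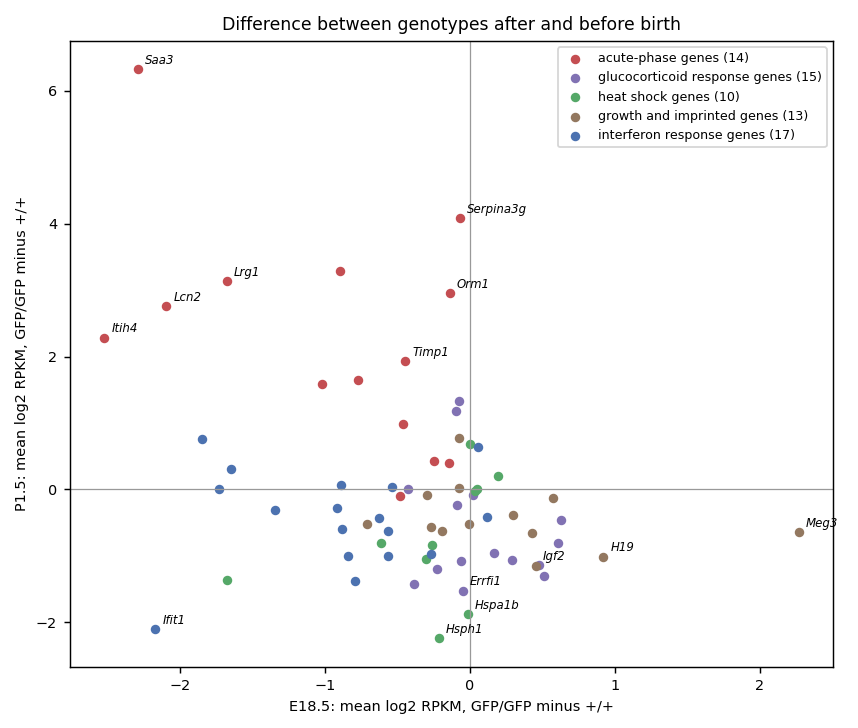
Each point is a measured gene of 5 lists, with its difference of mean log2 RPKM (GFP/GFP minus +/+) at E18.5 on the horizontal axis and at P1.5 on the vertical axis. Acute-phase genes (red) lie above 0 at P1.5 except *Pglyrp1* and below 0 at E18.5, *Meg3* lies farthest right, and *Ifit1* is below −2 at both stages.

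The genes on both sides of the ranking differed in length. The median span, introns included, was 9.20 kb for the 1526 genes that were higher, 17.6 kb for the 1725 that were lower and 15.4 kb for all tested. Over 5 equal groups of genes by span, from shortest to longest, the share higher without overlap was 26.0%, 21.1%, 15.6%, 12.2% and 6.10%, and the share lower was 14.6%, 16.6%, 19.8%, 18.9% and 21.7%. The median difference ran from 0.13 in the shortest group to −0.21 in the longest. Without +/+ replicate 1 it ran from 0.08 to −0.62, and without +/+ replicate 2 it was 0.12 in the shortest group and 0.17 in the longest. The trend of the median with span thus rested on +/+ replicate 2. The shares were not recomputed with a library left out.

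The lists named above hold genes of unlike span. The acute-phase members had a median span of 4.31 kb, oxidative phosphorylation members 7.07 kb and ribosomal protein members 3.22 kb, and 31 of the 79 oxidative phosphorylation genes lay in the shortest group, where 26.0% of genes were higher. Heat shock members, at 3.97 kb, were as short and more often lower. The part of span in the list counts was not tested.

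**Figure D5:**
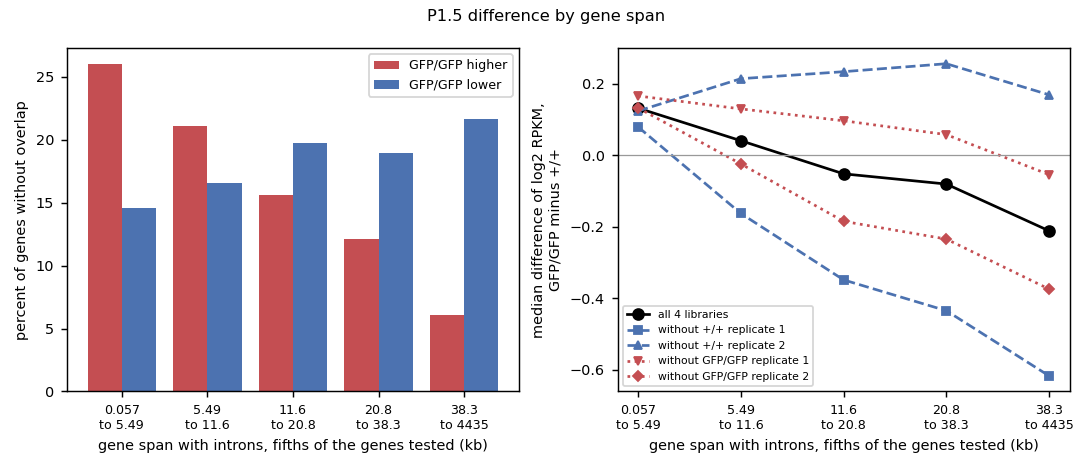
The left panel gives the percent of genes higher (red) or lower (blue) in GFP/GFP without overlap at P1.5 in 5 equal groups of the tested genes by span in kilobases. The right panel gives the median difference of log2 RPKM in each group with all 4 libraries (black) and with 1 left out, and the lines without +/+ replicate 1 and without +/+ replicate 2 part as span grows.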

How the data were processed

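RNA-seq of whole lung was read from the deposited table of log2 RPKM for 25965 genes, 1 column per library. The authors trimmed reads with Trim Galore 0.4.0, mapped them to mm10 with TopHat 2.1.1 guided by mRNA coordinates, counted them in SeqMonk and deposited log2 RPKM (the submitters' processing notes also name CASAVA 1.8). The length in RPKM proved to be the gene span with introns, a gene without reads carries 0.9 read, and reads were recovered as steps of each library (99.86% to 99.97% within 0.02 of a whole number). Groups come from sample titles. The 9422 genes averaging 0.5 RPKM or more across the libraries entered limma 3.58.1 (R 4.3.3) without a pseudocount, as 4 group means with 4 residual degrees of freedom, a trended prior, two-sided tests and Benjamini-Hochberg adjustment per contrast at 0.05. An exact permutation of 2 against 2 cannot go below p = 0.33. P-values measure the spread between duplicate animals, pooled over the 4 groups. In every group these were 1 female and 1 male by *Xist* and *Ddx3y* reads, and the fit held no term for sex.

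Named genes are *Wfdc2*, called genes, the 20 highest and 20 lowest ranked, and from each of 47 lists up to 4 non-overlapping members with the largest difference and the defining markers. Other members were chosen after their values were seen. Members and lists were chosen with earlier results of these data known. Of 875 list genes 867 were found, 17 by an older symbol, and 654 passed the filter. Promoters and motifs were read from RefSeq (GRCm38.p6), biotypes from GENCODE M21. Fits were tested on simulated counts, with genes drawn independently and no shift shared across a library. That test does not cover the spread seen between the +/+ libraries. Alternatives were other filters, pseudocounts, scalings, priors, replicate blocks, voom, the stage alone and each library left out. Python 3.11.15, pandas 2.3.3 and matplotlib 3.10.9 were used. Some list members are not reported here. Histology and protein assays were not analysed here.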

Additional observations from a re-analysis of the deposited data

How the results depend on the processing

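Counts are higher and lower genes at P1.5 unless said otherwise, against 0 and 3. No filter gave 5 and 16 (E18.5, 2 and 20) and 11897 lower without overlap at P1.5, a filter of 0.05 RPKM 3 lower at E18.5 and 4196 lower without overlap at P1.5, a pseudocount of 0.1 RPKM 1 and 6 (stage difference, 2), a pseudocount of 1 RPKM 12 and 12 (stage difference, 5), quantile normalization 0 lower at P1.5 and 1 higher at E18.5, median centring 0 lower at E18.5, a prior without trend 5 lower (stage difference, 2), the stage alone 2 and 5, and an adjusted p under 0.1 3 and 8 (stage difference, 23). With each P1.5 library left out, P1.5 gave 0 to 66 higher and 2 to 106 lower (0 and 0 without either E18.5 GFP/GFP library), E18.5 with each library left out 0 to 5 lower and the stage difference 0 to 89. With the replicate number as a random replicate block 19 were higher and 34 lower (E18.5, 17 higher, stage difference, 96), and as a fixed block 1 lower. Same-numbered P1.5 libraries deviated together (r = 0.36), and the number followed sex, but the labels do not say so and 2 pairs do not show that the numbers pair the samples. Of 40 ranked genes 12 more passed under the random block than as reported, among them *Hif3a*, *Saa3* and *Cldn4*. *Wfdc2* was called in every fit except quantile normalization and those without an E18.5 GFP/GFP library. Of 44 list medians 30 moved by more than the spread between replicates without +/+ replicate 1, 28 without +/+ replicate 2, and 8 and 5 without GFP/GFP replicates 1 and 2, some changing sign. The +/+ pair limits the precision, and genes under 3 reads were not measurable. The cause of these shifts was not tested.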
